A study of Mus musculus with 70 samples.

Results

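The unfolded protein response was followed through 10 of its genes, by symbol, in the deposited count tables. They were taken by name, with no threshold on measured values, but with earlier results of these data known. All 10 of them were found among the 25089 symbols of the tables and passed the filter on low counts in every fit. The endoplasmic reticulum folds secreted and membrane proteins, and hepatocytes, which secrete most plasma proteins, carry a large load of them. When unfolded protein accumulates, the sensors IRE1, ATF6 and PERK switch on separate programmes. ATF6 and the spliced form of XBP1 raise chaperones and the machinery of ER-associated degradation (ERAD), which returns misfolded proteins to the cytosol for destruction, whereas PERK slows translation and lets the transcription factor ATF4 be made. Of the 10 genes, 7 belong to the chaperone and ERAD side. Hspa5 encodes BiP, the main ER chaperone of the Hsp70 family, Hyou1 its nucleotide exchange factor, Dnajb9 a co-chaperone of BiP, Sdf2l1 a component of an ER chaperone complex, Creld2 an ER protein with disulfide isomerase activity, Derl3 a derlin of the ERAD machinery and Xbp1 the transcription factor whose mRNA IRE1 splices. The other 3 form the ATF4 arm: Atf4 itself, Ddit3, which encodes the transcription factor CHOP, and Trib3, a pseudokinase gene induced by ATF4 and CHOP. Counts per gene do not tell spliced from unspliced Xbp1 mRNA, and Atf4 is controlled mainly at translation, so neither gene's mRNA level measures its protein.

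The libraries came from total liver and from F4/80high CD11blow liver resident macrophages of male and female mice fed for 24 weeks. The groups were OpnKI Mye mice (KI), whose name denotes an osteopontin (Spp1) knock-in of myeloid cells, on a NASH (nonalcoholic steatohepatitis) diet or a control diet, and Lyz2.Cre+/+ mice (WT) on the same diets. Lyz2 drives Cre in myeloid cells, and the sources used here give neither the alleles behind the OpnKI Mye name nor the age of the mice. The 16 groups of tissue, sex, genotype and diet held 70 libraries, with 4 in each group except macrophages on the NASH diet, with 5 in each male and 6 in each female group. The labels do not say that the libraries of a group are separate animals, so p-values measure the spread between these libraries.

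Total counts were 17917827 to 23669846 per library in female liver, 11245097 to 29966174 in male liver, 17151791 to 26244679 in female macrophages and 16512356 to 24317721 in male macrophages. Over genes with 20 to 200 counts summed over the pair, the male liver WT control replicates 3 and 4 differed, after scaling, by less than counting noise, unlike every other pair within a group. Replicate 4 had the higher count in 12671 genes and replicate 3 in 1, and the ratio differed between genes: Hspa5 had 7655 counts in replicate 3 and 10049 in replicate 4, whereas Creld2 had 310 and 339. They were counted as 1 library, with their counts averaged, so this group has n = 3, and fits with either alone were run as alternatives. This library carries female sex genes, as does the male macrophage library labelled WT control replicate 4, so that 3 of the 70 deposited libraries contradict their sex label. Levels are given as CPM, the reads of a gene scaled to the library's total with the TMM correction, and without it for Spp1 and Lyz2. Spp1 was higher in KI macrophages on the control diet (7.12 to 11.3 CPM in KI males, against 0.268 to 0.516 in WT males), whereas in male liver on the NASH diet it was 22.2 to 65.8 CPM in KI and 133 to 698 in WT. Lyz2 differed between KI and WT livers and within both genotype labels. In male control livers WT had 33.45 to 96.04 CPM and KI 0.4802 to 26.8 CPM. In female control livers WT had 1.053 to 2.583 CPM and KI 19.86 to 43.37 CPM. KI thus lay below WT in males and above WT in females. The part of these differences in the comparisons of KI with WT was not tested. Male and female WT mice both carry the label Lyz2.Cre+/+, yet Lyz2 differed between them. On the NASH diet it was 139 to 311 CPM in male and 1.40 to 2.15 CPM in female WT livers, and within single KI groups it ran from 1.10 to 54.9 CPM in male livers, 1.26 to 68.95 CPM in female livers and 43.3 to 2690 CPM in female macrophages. The summed hepatocyte markers were 90040 to 198000 CPM in livers and 24.9 to 3202 in macrophages, and the summed resident Kupffer cell markers were 14230 to 42890 CPM in macrophages and 535 to 1169 in livers.

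The promoters of 4 of the genes are shown because the results turn on these genes and because their windows hold a textbook element of the arm they belong to. Each window is 300 bases, 250 before and 50 from the start of the RefSeq gene, build GRCm38.p6, read 5′ to 3′ on the gene's strand. Capitals in Hspa5, Creld2 and Derl3 mark CCAAT and CCACG, 9 bases apart, the outer parts of the ER stress response element (ERSE), the site bound by ATF6 and XBP1 with NF-Y. In Derl3 and Creld2 the element lies on the opposite strand, so these parts read CGTGG and ATTGG. Capitals in Trib3 mark the composite site TGATGNAA of ATF4 and C/EBP proteins, also on the opposite strand.
Hspa5, chr2:34771840-34772139, plus strand: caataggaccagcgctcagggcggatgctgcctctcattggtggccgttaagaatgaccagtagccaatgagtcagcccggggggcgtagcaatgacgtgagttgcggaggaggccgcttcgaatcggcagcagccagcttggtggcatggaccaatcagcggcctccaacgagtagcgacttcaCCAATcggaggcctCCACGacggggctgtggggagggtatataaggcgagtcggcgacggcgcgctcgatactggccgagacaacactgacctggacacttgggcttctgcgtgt
Creld2, chr15:88819396-88819695, plus strand: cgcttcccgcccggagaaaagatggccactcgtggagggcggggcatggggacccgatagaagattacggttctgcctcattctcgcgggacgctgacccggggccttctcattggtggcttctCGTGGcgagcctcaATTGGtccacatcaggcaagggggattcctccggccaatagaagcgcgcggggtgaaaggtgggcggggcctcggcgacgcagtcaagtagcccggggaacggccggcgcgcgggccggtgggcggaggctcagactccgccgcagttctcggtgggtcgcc
Derl3, chr10:75893148-75893447, plus strand: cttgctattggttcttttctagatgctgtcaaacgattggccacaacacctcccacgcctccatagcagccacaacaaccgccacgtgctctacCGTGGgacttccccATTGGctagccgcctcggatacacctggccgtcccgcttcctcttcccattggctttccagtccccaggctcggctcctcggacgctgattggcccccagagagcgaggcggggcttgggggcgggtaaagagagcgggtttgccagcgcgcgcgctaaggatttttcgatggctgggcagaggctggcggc
Trib3, chr2:152344011-152344310, minus strand: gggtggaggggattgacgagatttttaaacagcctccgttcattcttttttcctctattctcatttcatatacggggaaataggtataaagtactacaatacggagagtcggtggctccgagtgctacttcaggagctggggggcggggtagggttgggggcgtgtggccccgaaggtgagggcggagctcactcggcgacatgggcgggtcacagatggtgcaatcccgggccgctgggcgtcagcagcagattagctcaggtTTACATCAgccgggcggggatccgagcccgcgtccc
The element starts 65 bases before the start site in Hspa5, 126 before in Creld2 and 156 before in Derl3, and the Trib3 site starts 15 bases after the start site. Of 32851 RefSeq promoter windows of the same length, 39 (0.119%) held the ERSE on either strand. Among them were the windows of 3 of the 9 genes with an entry. Hyou1 had no entry, so its promoter was not searched. The second form of the element (ATTGG and CCACG, 1 base apart) was in 12 windows (0.0365%) and in none of the 9, and the core of the unfolded protein response element TGACGTGG was in 222 windows (0.676%) and in none of the 9. The composite ATF4 site was in 1304 windows (3.97%), among the 9 in Trib3. A match describes these letters and is not evidence of binding.

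In the GENCODE M21 annotation of GRCm38 Hspa5 spans chr2:34771970-34777547, Hyou1 chr9:44379490-44392369, Creld2 chr15:88819646-88826683 and Derl3 chr10:75893413-75895941, all on the plus strand. Trib3 spans chr2:152337422-152344032 on the minus strand. Ddit3, at chr10:127290774-127296288 on the plus strand, overlaps exonic bases of Mars and Gm4189 on the other strand. A second protein-coding entry with the symbol Ddit3, on the plus strand, overlaps 105 of its exonic bases, and the first entry is used here. Whether the counting used strand, and how it treated these entries, is not given in the sources used here. The Ddit3 counts are uncertain for these reasons.

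Per kilobase of exon, Hspa5 was the most abundant of the 10 in every WT control group, and Derl3 the least abundant. The mean Hspa5 level was 169 CPM per kb in male WT control livers and 406 in male WT control macrophages. Xbp1 came next in male WT control livers, at 86.8 CPM per kb, followed by Atf4 at 42.3, whereas in male WT control macrophages Atf4 stood at 110, Sdf2l1 at 80.7 and Xbp1 at 53.4. Ddit3 had 2.82 CPM per kb in male WT control livers and 36.2 in the macrophages. Derl3 had 1.25 and 0.259, and Trib3 3.14 and 0.468. The order of these levels describes means, and neighbours were not tested against each other.

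**Figure D1:**
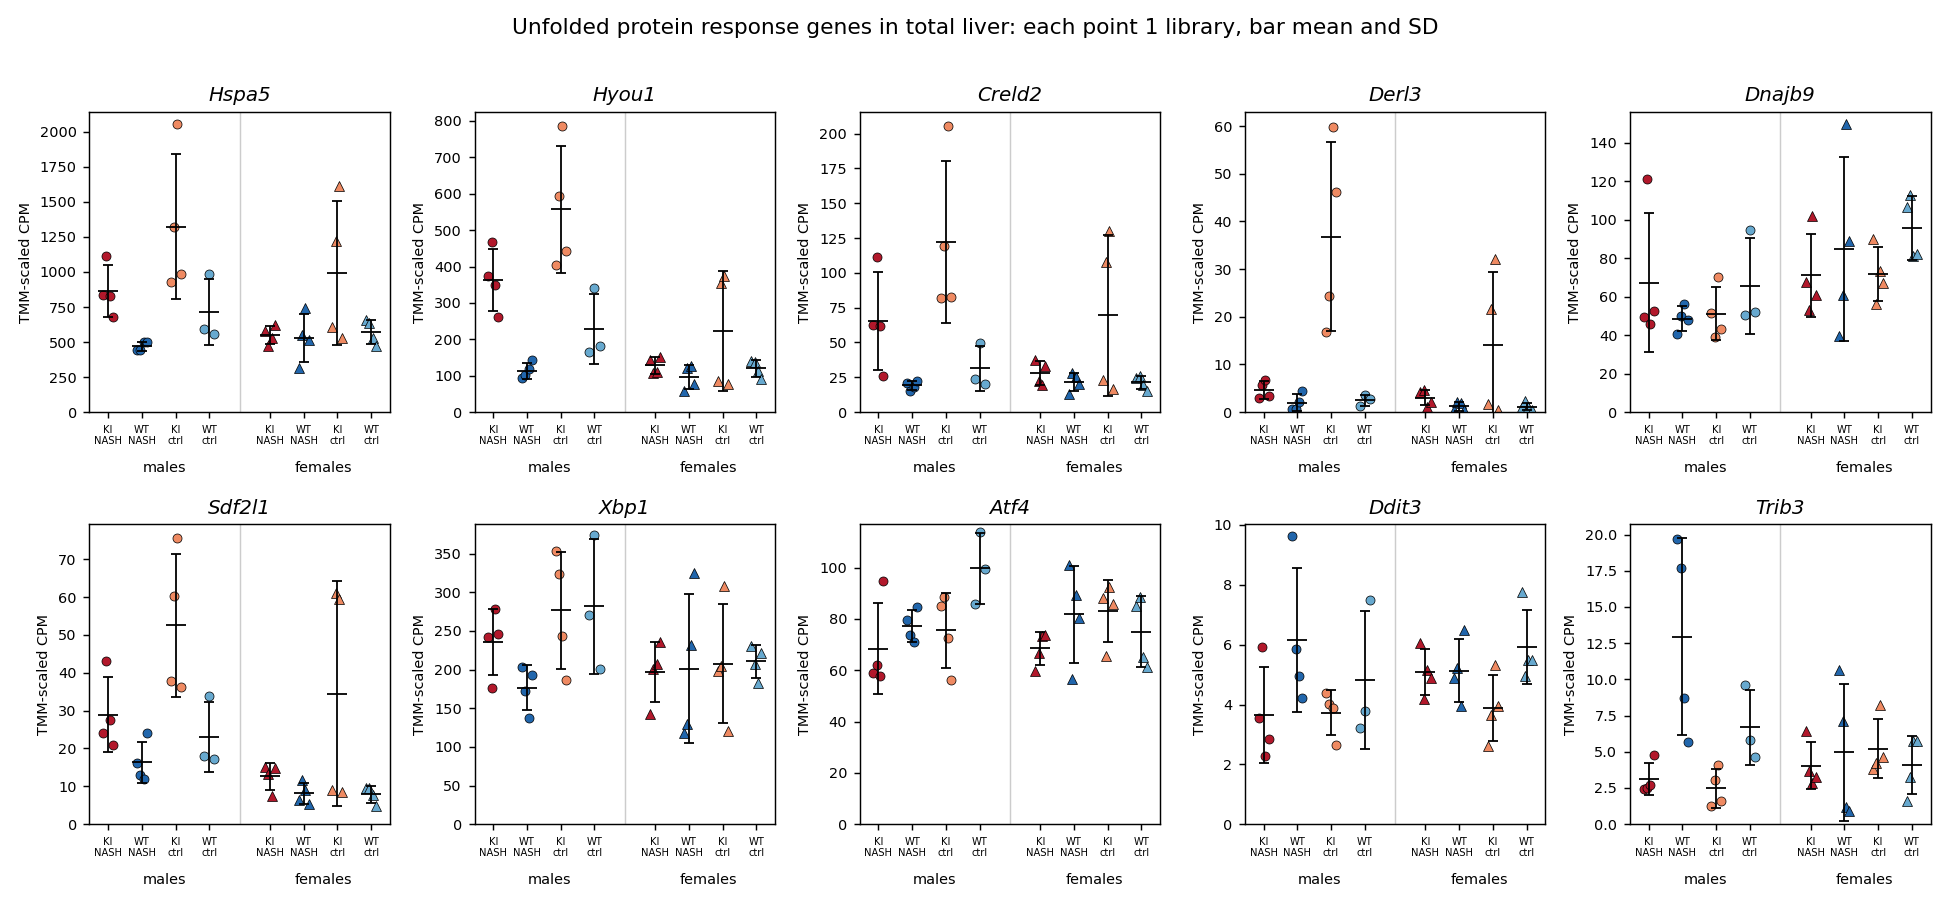
TMM-scaled CPM of the 10 genes in every liver library (points, with the mean and SD of each group; linear axes from 0), by sex, genotype and diet, with KI left of WT. In males on the NASH diet the 4 KI libraries of Hyou1 (261 to 469 CPM) lie above the 4 WT libraries (92.8 to 142 CPM), and those of Trib3 (2.42 to 4.78 CPM) lie below WT (5.66 to 19.7 CPM).

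In male livers on the NASH diet, the comparison of KI with WT asks how the livers of the myeloid osteopontin knock-in differ on this diet. The groups also differed in Lyz2 (1.101 to 54.85 CPM in KI, 139.3 to 310.5 CPM in WT). The part of Lyz2 was not tested. Here 3 of the 7 chaperone and ERAD genes rose in KI and 1 of the 3 genes of the ATF4 arm fell. These 4 of 10 are set against 4807 of 12988 genes that passed in this comparison (37.0%), so the count is near the background, and what the members add is direction and size. Hspa5 had 835, 1117, 826 and 677 CPM in KI livers, against 441, 444, 499 and 500 CPM in WT livers. The groups did not overlap, with KI higher and more widely spread. Its log2 fold change was 0.88 (SE 0.25, adjusted p = 0.0140, edgeR's quasi-likelihood test with Benjamini-Hochberg adjustment, as for all adjusted p below), or 1.83-fold. Hyou1 had 373, 469, 349 and 261 CPM in KI livers, against 92.8, 102, 119 and 142 CPM in WT livers. The groups were far apart, and the lowest KI value exceeded the highest WT value. Hyou1 was 3.18-fold higher in KI (log2 fold change 1.67, SE 0.27, adjusted p = 0.000512). Creld2 had 62.6, 111, 61.8 and 25.9 CPM in KI livers and 15.5 to 22.6 CPM in WT livers. The fourth KI library lay only just above the highest WT library. Creld2 was 3.38-fold higher in KI (log2 1.76, SE 0.41, adjusted p = 0.00469).

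The other 4 genes of this side did not pass in the male NASH livers. Sdf2l1 had 24.0, 43.2, 27.6 and 21.0 CPM in KI livers and 16.1, 13.0, 12.0 and 24.2 CPM in WT livers, and the groups overlapped (log2 0.82, SE 0.31, adjusted p = 0.0525). Derl3 had 2.96, 5.71, 6.83 and 3.34 CPM in KI livers and 0.611, 0.608, 2.15 and 4.40 CPM in WT livers, overlapping through 1 WT library (log2 1.25, SE 0.57, adjusted p = 0.0987). Xbp1 had 176 to 278 CPM in KI, against 137 to 203 in WT (log2 0.42, adjusted p = 0.156). Dnajb9 had 45.7 to 121 CPM in KI, against 40.4 to 56.2 in WT (log2 0.47, adjusted p = 0.236), with the high value in KI NASH replicate 2 alone.

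On the ATF4 side Trib3 had 2.42, 2.51, 2.74 and 4.78 CPM in KI livers, against 19.7, 17.7, 8.71 and 5.66 CPM in WT livers. All KI libraries lay below all WT libraries, which themselves were widely spread. The log2 fold change was -2.05 (SE 0.44, adjusted p = 0.00289), a level of 0.241 of WT. Ddit3 had 3.56, 5.92, 2.27 and 2.83 CPM in KI and 9.64, 5.86, 4.95 and 4.20 CPM in WT (log2 -0.77, SE 0.34, adjusted p = 0.0932), and the groups overlapped. Atf4 had 57.6 to 94.9 CPM in KI, against 71.0 to 84.7 in WT (log2 -0.18, SE 0.17, adjusted p = 0.434). The 4 calls of this comparison passed in all of the alternative fits that were run, with a highest adjusted p of 0.0482 in Hspa5.

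**Figure D2:**
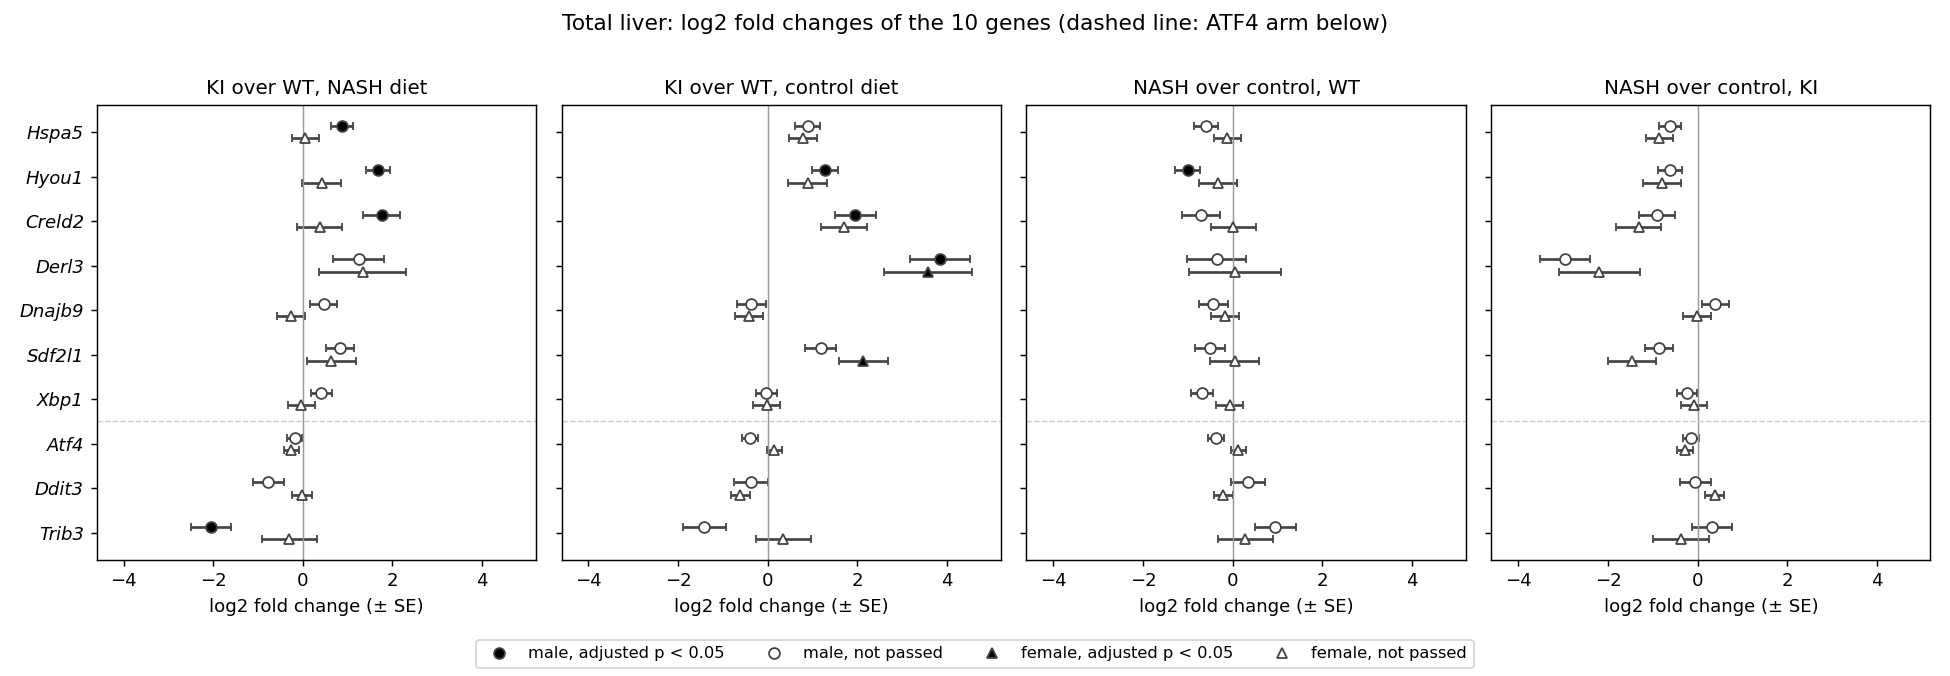
Log2 fold changes with SE of the 10 genes in liver, in males (circles) and females (triangles), for KI over WT on each diet and for NASH over control diet in each genotype; filled symbols passed an adjusted p of 0.05 and the dashed line sets off the ATF4 arm. Hyou1 stands at 1.67 in males and 0.42 in females for KI over WT on the NASH diet, and Derl3 at 3.85 and 3.58 on the control diet.

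The wider pathway was read from lists of genes other than the 10 members. These lists were also chosen with earlier results of these data known, so their counts describe the pathway and are not independent support. In male livers on the NASH diet, 12 of 22 chaperone and folding genes rose in KI and 1 fell, with a median log2 fold change of 0.43 against -0.02 over all genes. Of all 12988 genes tested 37.0% passed in this comparison, 2544 higher and 2263 lower. The largest rises were those of Ero1lb, an ER oxidoreductin (1.13, SE 0.24, adjusted p = 0.00290), of Uggt1, which senses the folding of glycoproteins (0.98, SE 0.13, adjusted p = 0.000134), and of Manf, a secreted ER stress protein (0.96, SE 0.27, adjusted p = 0.0130), while Cnpy2 fell (-0.33, SE 0.10, adjusted p = 0.0150). Of 20 ERAD and translocon genes 10 rose and none fell (median 0.40). These include Syvn1, the ERAD ubiquitin ligase (1.25), its partner Sel1l (0.84) and Edem3, which trims mannose from misfolded glycoproteins (1.00). Of 12 sensors and regulators 7 rose and none fell (median 0.42), with Creb3l2, an ER membrane transcription factor, at 1.56, Ern1, which encodes IRE1, at 1.27, and Wfs1 at 1.09. Of 27 tested genes of the ATF4 arm 2 rose and 4 fell (median -0.06), a smaller share than among all genes. The risers were Chac1, which degrades glutathione (1.65, SE 0.39, adjusted p = 0.00502), and the threonyl-tRNA synthetase gene Tars (0.47, SE 0.11, adjusted p = 0.00570). The largest falls were in the stress gene Nupr1 (-3.82, SE 0.73, adjusted p = 0.00149), the lipoprotein receptor gene Vldlr (-3.61, SE 0.73, adjusted p = 0.00212) and the hormone gene Fgf21 (-2.16, SE 0.78, adjusted p = 0.0416). Chac1 and Trib3, both known ATF4 targets, thus moved in opposite directions in the same livers.

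**Figure D3:**
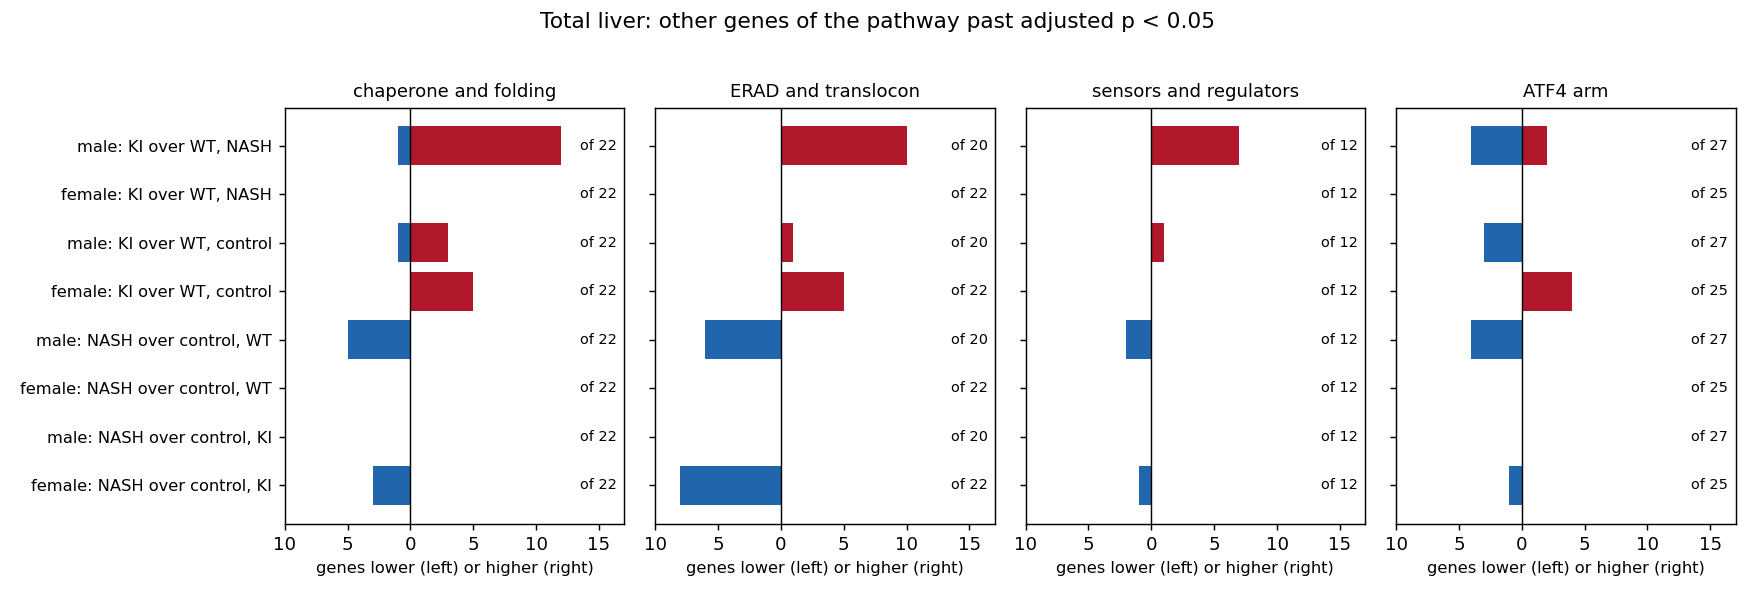
Number of genes of each pathway list that passed in liver, higher to the right and lower to the left, with the number tested beside each row, for KI over WT on each diet and for NASH over control diet in each genotype. For KI over WT in males on the NASH diet 12 chaperone and folding genes and 10 ERAD and translocon genes were higher, and none of either list passed in females on this diet. Of all genes 37.0% passed in this comparison in males and 0.0901% in females.

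Markers of other cell types and states were read beside these results in bulk liver, where fewer cells of a type and less RNA per cell cannot be told apart. Their counts are set against the 37.0% of all genes that passed in this comparison. In male livers on the NASH diet the summed hepatocyte markers were 101800 to 143300 CPM in KI, against 90040 to 97470 in WT, and 5 of 10 rose. The summed recruited monocyte markers were 468 to 566 CPM in KI, against 390 to 449 in WT, with 1 of 8 higher and 4 lower. The sum was mostly F10, which hepatocytes also express (507 ± 35.9 CPM in KI, 369.9 ± 49.0 CPM in WT, SD, n = 4 each), whereas Ccr2, S100a4, Cx3cr1 and Plac8 fell and the median of the list was -0.88. Of the other markers, 1 of 6 plasma cell and 1 of 8 sinusoidal endothelial genes fell, and 1 of 10 Kupffer cell and 2 of 12 immediate early and heat shock genes rose. Each of these shares is below that of all genes. Of 12 circadian clock genes 4 rose, Per1, Per2, Ciart and Clock, a share near that of all genes (summed 647 to 775 CPM in KI, 438 to 683 CPM in WT). Their part in the chaperone result was not tested.

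On the control diet the comparison asks the same without the NASH diet, and in males 3 of the 10 genes rose in KI, all on the chaperone and ERAD side, where 606 of 12988 genes passed (4.67%). Derl3 had 16.7, 24.3, 59.8 and 46.2 CPM in KI livers, against 1.28, 3.55 and 2.66 CPM in WT livers. The groups were far apart. Derl3 was 14.4-fold higher in KI (log2 3.85, SE 0.67, adjusted p = 0.0137). Creld2 had 82.2, 119, 206 and 82.7 CPM in KI livers, against 24.0, 49.6 and 20.5 CPM in WT livers, without overlap (3.89-fold, log2 1.96, SE 0.46, adjusted p = 0.0302). Hyou1 had 405, 593, 788 and 443 CPM in KI livers, against 166, 340 and 181 CPM in WT livers. The groups did not overlap here either, with KI control replicate 3 the highest in all 3 genes (2.43-fold, log2 1.28, SE 0.29, adjusted p = 0.0287).

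Hspa5 had 929, 1319, 2053 and 988 CPM in male KI control livers and 594, 984 and 561 CPM in WT control livers, overlapping by 1 library on each side (log2 0.89, SE 0.27, adjusted p = 0.0718). Sdf2l1 had 37.8, 60.3, 75.7 and 36.3 CPM in KI and 18.1, 33.8 and 17.2 CPM in WT (log2 1.18, SE 0.35, adjusted p = 0.0626). The groups did not overlap, but the gene missed the threshold. Xbp1 (log2 -0.03, adjusted p = 0.962), Dnajb9 (-0.36, adjusted p = 0.545), Ddit3 (-0.37, adjusted p = 0.596) and Atf4 (-0.40, adjusted p = 0.209) did not pass. Trib3 had 1.23, 3.04, 4.09 and 1.57 CPM in KI and 9.62, 5.79 and 4.63 CPM in WT. As on the NASH diet, all KI values were below all WT values, but the change did not pass (log2 -1.41, SE 0.47, adjusted p = 0.0943).

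The Derl3 call of the male control livers held in every alternative fit (highest adjusted p 0.0462). Those of Hyou1 and Creld2 were lost, with adjusted p of 0.0542 to 0.107 for each, without WT control replicate 1, without the merged library of replicates 3 and 4 that carries female sex genes, or without KI control replicate 2, 3 or 4. Of the pathway lists 3 of 22 chaperone and folding genes rose and 1 fell (median 0.29, against 0.01 over all genes, of which 4.67% passed). The risers were Hsp90b1, which encodes GRP94 (0.88, SE 0.23, adjusted p = 0.0472), Dnajb11, a co-chaperone of BiP (0.73, SE 0.20, adjusted p = 0.0492), and Uggt1 (0.70, SE 0.14, adjusted p = 0.0185). Cnpy2 fell (-0.45, SE 0.10, adjusted p = 0.0283). Of 20 ERAD and translocon genes Ubxn4 rose (0.60), and of 12 sensors and regulators Atf6b, a relative of ATF6, rose (0.60, SE 0.12, adjusted p = 0.0185). In the ATF4 arm 3 of 27 fell and none rose: Atf3 (-4.74, SE 1.18, adjusted p = 0.0386), whose WT mean of 86.6 ± 130.5 CPM (SD, n = 3) varied more than its size, Cebpb (-1.05, SE 0.29, with an adjusted p just under the threshold) and Ppp1r15a, the phosphatase subunit that restores translation (-0.98, SE 0.22, adjusted p = 0.0273). Beside this, the clock genes Arntl (2.37) and Clock (0.88) were higher and Ciart (-1.90) lower in KI. The summed immediate early and heat shock genes were 1391 to 1878 CPM in KI, against 1697, 1744 and 4133 CPM in WT. The highest WT sum is that of the merged library with female sex genes, and the other WT sums lay within the KI range. Of this list of 12 genes, 1 rose (Hsph1, 1.06) and 1 fell (Fosb, -3.83). Plasma cells express many of these genes highly. Their summed markers were 194 to 290 CPM among the KI livers, against 184 to 360 among the WT livers. Of the 6 markers tested 0 passed, and the median log2 fold change of the list was 0.10. The part of plasma cells, clock genes and stress genes was not tested.

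In female livers on the control diet 2 of the 10 genes rose in KI, where 1008 of 13315 genes passed (7.57%). Derl3 had 1.78, 21.5, 32.2 and 0.400 CPM in KI livers, against 1.03, 2.24, 0.979 and 0.451 CPM in WT livers. The rise rested on KI control replicates 2 and 3, and the other 2 KI libraries lay within the WT range or below it (log2 3.58, SE 0.99, adjusted p = 0.0388). Sdf2l1 had 9.07, 61.0, 59.4 and 8.62 CPM in KI livers, against 9.52, 9.52, 7.74 and 4.69 CPM in WT livers, with the same 2 libraries high (log2 2.14, SE 0.55, adjusted p = 0.0301). The same 2 KI libraries were also the highest of the 8 for Hspa5 (608, 1220, 1614 and 531 CPM in KI, 471 to 655 CPM in WT), Hyou1 (86.1, 356, 375 and 76.1 CPM in KI, 90.9 to 139 CPM in WT) and Creld2 (23.3, 108, 130 and 16.5 CPM in KI, 15.5 to 26.2 CPM in WT), none of which passed (adjusted p = 0.123, 0.211 and 0.0531). Female KI control livers were thus split between 2 libraries with the raised pattern and 2 without it. Both calls were lost without KI control replicate 2 or 3 or without any 1 of the WT control libraries (adjusted p 0.0517 to 0.117 for Derl3 and 0.0506 to 0.0894 for Sdf2l1).

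Beside these 4 female KI control libraries, in order, the summed hepatocyte markers were 153600, 116400, 130700 and 167900 CPM, so the 2 libraries with high chaperones had the lowest hepatocyte sums. They also had the highest sums of sinusoidal endothelial markers among the 4 (413.6, 529.6, 548.1 and 441.4 CPM, in the same order), and replicate 2 had the highest plasma cell sum (283.5, 420.7, 300.4 and 323.7 CPM). The female WT control libraries, without the raised pattern, had endothelial sums of 404.3 to 623.9 CPM and hepatocyte sums of 119800 to 141200 CPM. Between KI and WT, 2 of 7 recruited monocyte, 1 of 10 hepatocyte and 1 of 8 sinusoidal endothelial markers rose, and 1 of 10 Kupffer cell and 1 of 12 immediate early and heat shock genes fell. Of all genes 7.57% passed in this comparison. The summed clock genes were 660 to 787 CPM in KI, against 1103 to 1157 in WT, and 2 of 11 were lower in KI. The plasma cell markers were 284 to 421 CPM in KI, against 244 to 317 in WT, and 0 of 6 passed. The part of these differences was not tested. Dnajb9 (log2 -0.42, adjusted p = 0.439), Xbp1 (-0.02, adjusted p = 0.978), Atf4 (0.15, adjusted p = 0.636), Ddit3 (-0.61, adjusted p = 0.0989) and Trib3 (0.35, adjusted p = 0.764) did not pass. Of the lists, 5 of 22 chaperone and folding genes, 5 of 22 ERAD and translocon genes and 4 of 25 genes of the ATF4 arm rose, and none fell.

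In female livers on the NASH diet none of the 10 genes passed between KI and WT in edgeR, in DESeq2 or at an unadjusted p under 0.05. Of all 13315 genes 12 passed in edgeR (0.0901%) and 1728 had an unadjusted p under 0.05. Hspa5 had 578, 470, 529 and 623 CPM in KI livers and 314, 548, 740 and 514 CPM in WT livers. Hyou1 had 144, 108, 110 and 152 CPM in KI and 57.9, 121, 128 and 77.7 CPM in WT, and Trib3 had 2.83 to 6.42 CPM in KI, against 0.894 to 10.7 in WT. The groups overlapped in all 3 genes. The log2 fold changes were 0.06 (SE 0.30) for Hspa5, 0.42 (SE 0.43) for Hyou1, 0.38 (SE 0.50) for Creld2, 1.33 (SE 0.97) for Derl3 and -0.30 (SE 0.61) for Trib3. With errors of this size, the interval of the Hyou1 difference, -0.42 to 1.26, reaches past the lower bound of the male interval, 1.14 to 2.20. Intervals are the log2 fold change ± 1.96 SE.

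The difference between the sexes was tested directly in a fit of all liver libraries. On the control diet Lyz2 also differed between KI and WT in opposite directions in the sexes, and its part was not tested. For KI over WT on the NASH diet, female minus male, 1880 of 13415 genes passed (14.0%) and 0 of the 10 did, with 2 at an unadjusted p under 0.05 and none by DESeq2. These 2 were Hyou1 (-1.27, SE 0.54, adjusted p = 0.113) and Trib3 (1.73, SE 0.80, adjusted p = 0.145). Of all 13415 genes, 3970 had an unadjusted p under 0.05. On the control diet, in a comparison chosen after seeing the data, 962 genes passed (7.17%) and again 0 of the 10, with Atf4 (0.55, adjusted p = 0.193) and Trib3 (1.76, adjusted p = 0.191) at an unadjusted p under 0.05 and none by DESeq2. On this diet 3337 of all genes had an unadjusted p under 0.05. Derl3 differed by -0.26 (SE 1.24), an interval of -2.69 to 2.17.

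The mean of the male and female KI effects on the control diet was also chosen after seeing the data. Of the 7 chaperone and ERAD genes 5 were higher in KI and of the 3 of the ATF4 arm none passed, where 1147 genes passed (8.55%). Derl3 was 13.0-fold higher (log2 3.70, SE 0.65, adjusted p = 0.00183), Creld2 3.53-fold (1.82, SE 0.37, adjusted p = 0.00441) and Sdf2l1 3.13-fold (1.64, SE 0.35, adjusted p = 0.00662). Hyou1 was 2.10-fold higher (1.07, SE 0.28, adjusted p = 0.0199) and Hspa5 1.77-fold (0.83, SE 0.22, adjusted p = 0.0197). Dnajb9 (-0.41, adjusted p = 0.296), Xbp1 (-0.04, adjusted p = 0.929), Atf4 (-0.15, adjusted p = 0.529), Ddit3 (-0.51, adjusted p = 0.145) and Trib3 (-0.55, adjusted p = 0.444) did not pass. Without the merged male WT control library the adjusted p was 0.0555 for Hspa5 and 0.0531 for Hyou1. Without female KI control replicate 3 it was 0.0537 for Hspa5 and 0.0530 for Hyou1, and without male WT control replicate 1 it was 0.0530 for Hyou1.

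In the same mean over sexes, 10 of 22 chaperone and folding genes rose and none fell, led by Manf (0.92, SE 0.26, adjusted p = 0.0284), Dnajb11 (0.90, SE 0.20, adjusted p = 0.00791) and Hsp90b1 (0.87, SE 0.19, adjusted p = 0.00682). The median over the list was 0.38, against -0.02 over all genes, of which 8.55% passed. Of 20 ERAD and translocon genes 7 rose, led by Syvn1 (0.85), the translocon channel gene Sec61a1 (0.49) and Ssr1 (0.47), and of 12 sensors and regulators Atf6b (0.45) and the kinase gene Eif2ak2 (0.41) rose. In the ATF4 arm Tars rose (0.44) and Atf3 (-2.78), Nupr1 (-1.60) and Vldlr (-1.45) fell, of 29 tested.

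The diet comparisons set the NASH diet against the control diet within a genotype, and steatohepatitis itself is not measured by these counts. In male WT livers 1 of the 10 genes fell on the NASH diet, where 2730 genes passed (21.0%). Hyou1 had 92.8, 102, 119 and 142 CPM in NASH livers, against 166, 340 and 181 CPM in control livers, without overlap (log2 -1.01, SE 0.28, adjusted p = 0.0229). The call was lost without WT control replicate 2, the highest library (-0.61, adjusted p = 0.153), or without WT NASH replicate 1 (-0.95, adjusted p = 0.0519). Hspa5 (-0.60, adjusted p = 0.119) and Atf4 (-0.37, adjusted p = 0.165) were also lower in every NASH than in every control library without passing, Xbp1 stood at -0.68 (adjusted p = 0.0592) and Trib3 at 0.96 (SE 0.46, adjusted p = 0.154). Hepatocyte markers fell at the same time (7 of 10), and their part was not tested. Of the lists 5 of 22, 6 of 20, 2 of 12 and 4 of 27 genes fell, in the order chaperone and folding, ERAD and translocon, sensors and regulators, and ATF4 arm, and none rose.

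In male KI livers 0 of 12988 genes passed between the diets in edgeR (0%), with 847 at an unadjusted p under 0.05, and so none of the 10. Derl3 had 2.96, 5.71, 6.83 and 3.34 CPM in KI NASH livers, against 16.7, 24.3, 59.8 and 46.2 CPM in KI control livers. All NASH libraries lay below all control libraries (log2 -2.96, SE 0.55, unadjusted p = 8.9e-05, adjusted p = 0.247). Hspa5 (-0.61), Hyou1 (-0.62), Creld2 (-0.91) and Sdf2l1 (-0.86) made up the other 4 of 5 genes at an unadjusted p under 0.05, and DESeq2 called 1 of the 10, Derl3. The diet effect in KI minus that in WT passed in 147 genes (1.13%) and in 0 of the 10 in edgeR and in DESeq2. Derl3 (-2.60, SE 0.85, adjusted p = 0.128) was the only gene of the 10 at an unadjusted p under 0.05, against 2602 of all genes.

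In female livers the diet moved none of the 10 past the threshold. In WT 7 genes of 13315 passed (0.0526%), and of the 10 none did, by edgeR, by an unadjusted p under 0.05 or by DESeq2. An unadjusted p under 0.05 was found in 1829 of all genes in WT. In KI 1176 genes passed (8.83%) and 0 of the 10 did, with 1 by DESeq2, Hspa5. At an unadjusted p under 0.05 in KI were 3499 of all genes and 4 of the 10. These 4 were Derl3 (-2.20, SE 0.91, adjusted p = 0.136), Sdf2l1 (-1.45, SE 0.54, adjusted p = 0.0985), Creld2 (-1.31, SE 0.50, adjusted p = 0.110) and Hspa5 (-0.85, SE 0.31, adjusted p = 0.0934), and the high KI control replicates 2 and 3 set their control means. The difference of the diet effects, KI minus WT, passed in 635 genes (4.77%) and had an unadjusted p under 0.05 in 3039. None of the 10 was among either, or was called by DESeq2. Because the diet and genotype comparisons share groups, their values for a gene are not independent of each other.

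**Figure D4:**
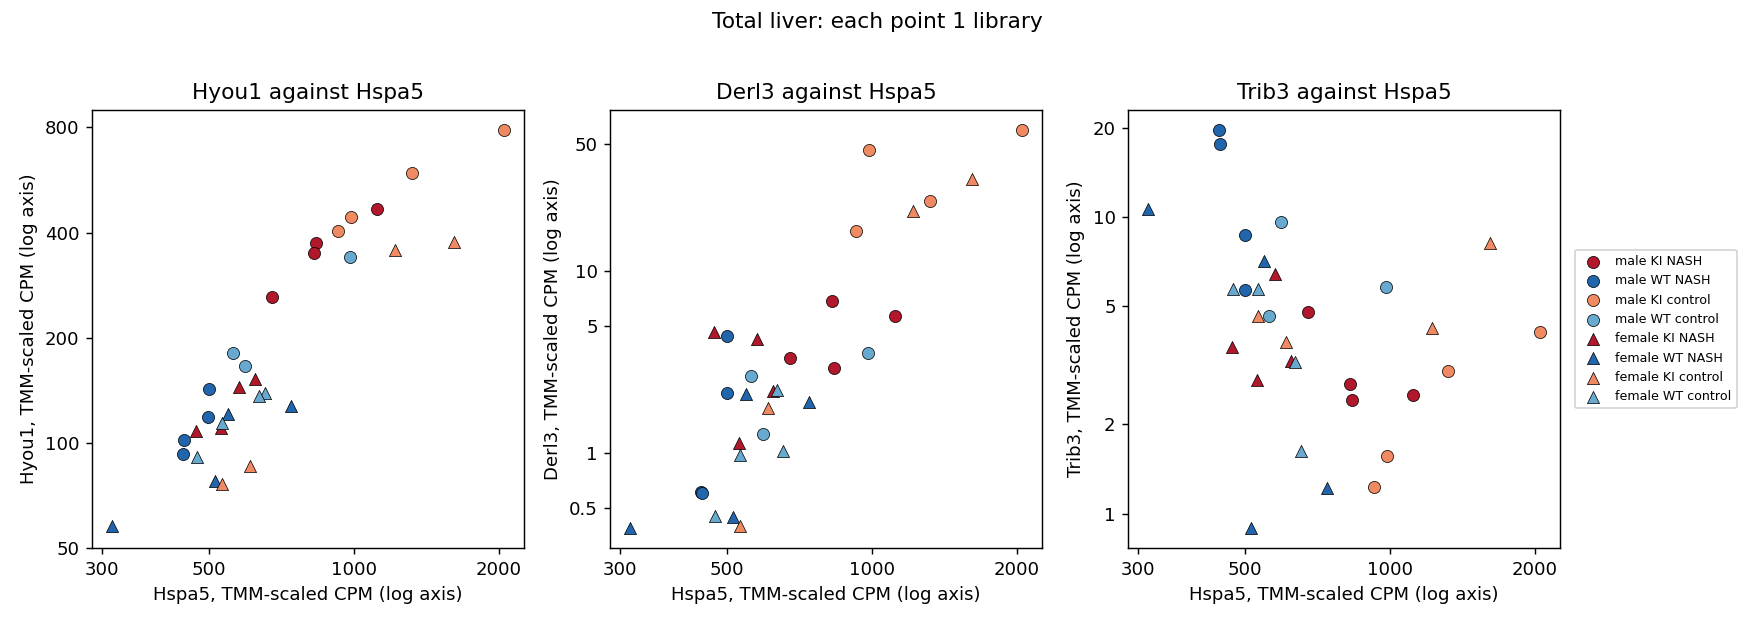
TMM-scaled CPM of Hyou1, Derl3 and Trib3 against Hspa5 in the 31 liver libraries (log axes; circles males, triangles females; colours give genotype and diet). Hyou1 lies along a line with Hspa5 (Spearman rho 0.964 after subtracting group means), Derl3 less closely (0.692), and Trib3 does not (-0.054).

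Within groups the chaperone genes varied together and the ATF4 arm did not vary with them in liver. After the mean of each group was subtracted, Hyou1 had the highest Spearman rho with Hspa5 of 12603 genes over 31 liver libraries (0.964). Syvn1 (0.914), Creld2 (0.912), Manf (0.911) and Dnajb11 (0.892) came next, all genes of ER folding or degradation. Sdf2l1 stood at 0.813 and Derl3 at 0.692, whereas Dnajb9 (0.428) and Xbp1 (0.364) were looser, and Ddit3 (0.198), Atf4 (0.061) and Trib3 (-0.054) lower still. Among the genes most like Trib3 in liver were Fbxo21 (0.831), Ago4 (0.809), Ing4 (0.792) and Gtpbp2 (0.757). Over 38 macrophage libraries the genes most like Hspa5 were the chaperonin gene Cct8 (0.867), Calr (0.863), Manf (0.854), Hyou1 (0.843) and Dnajb11 (0.823). Dnajb9 (0.793), Xbp1 (0.726), Atf4 (0.575) and Ddit3 (0.574) were closer to Hspa5 there than in liver, and Derl3 was at 0.002, on counts near its detection limit. Trib3 in macrophages was most like Cyp2f2 (0.666), Sars (0.665), Aox3 (0.648), Mup20 (0.61) and Abcg8 (0.58), of which Cyp2f2, Aox3, Mup20 and Abcg8 are genes of hepatocytes. Both genes of a pair are read from the same library, whose depth enters both values, so the correlations describe these libraries and carry no test.

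The ERSE described above was found in the promoter windows of 37 genes in all, of which 19 were tested in liver, 3 of them members. In male livers on the NASH diet 8 of the 19 rose in KI and 1, Spats2l, fell, with a median log2 fold change of 0.46 against -0.02 over all genes, of which 37.0% passed. The 8 were Hspa5, Creld2, Calr, Canx, Hsp90b1, Syvn1, Dnajc3 and Pan2. On the control diet 3 of the 19 rose in males (Derl3, Creld2 and Hsp90b1) and 3 in females (Derl3, Pdia6 and Calr), where 4.67% of all genes passed in males and 7.57% in females. In the mean over sexes 9 rose and none fell (median 0.22, against -0.02), where 8.55% of all genes passed. The 19 include the 3 members, and many of the others are also in the chaperone list, so the counts overlap with those above.

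**Figure D5:**
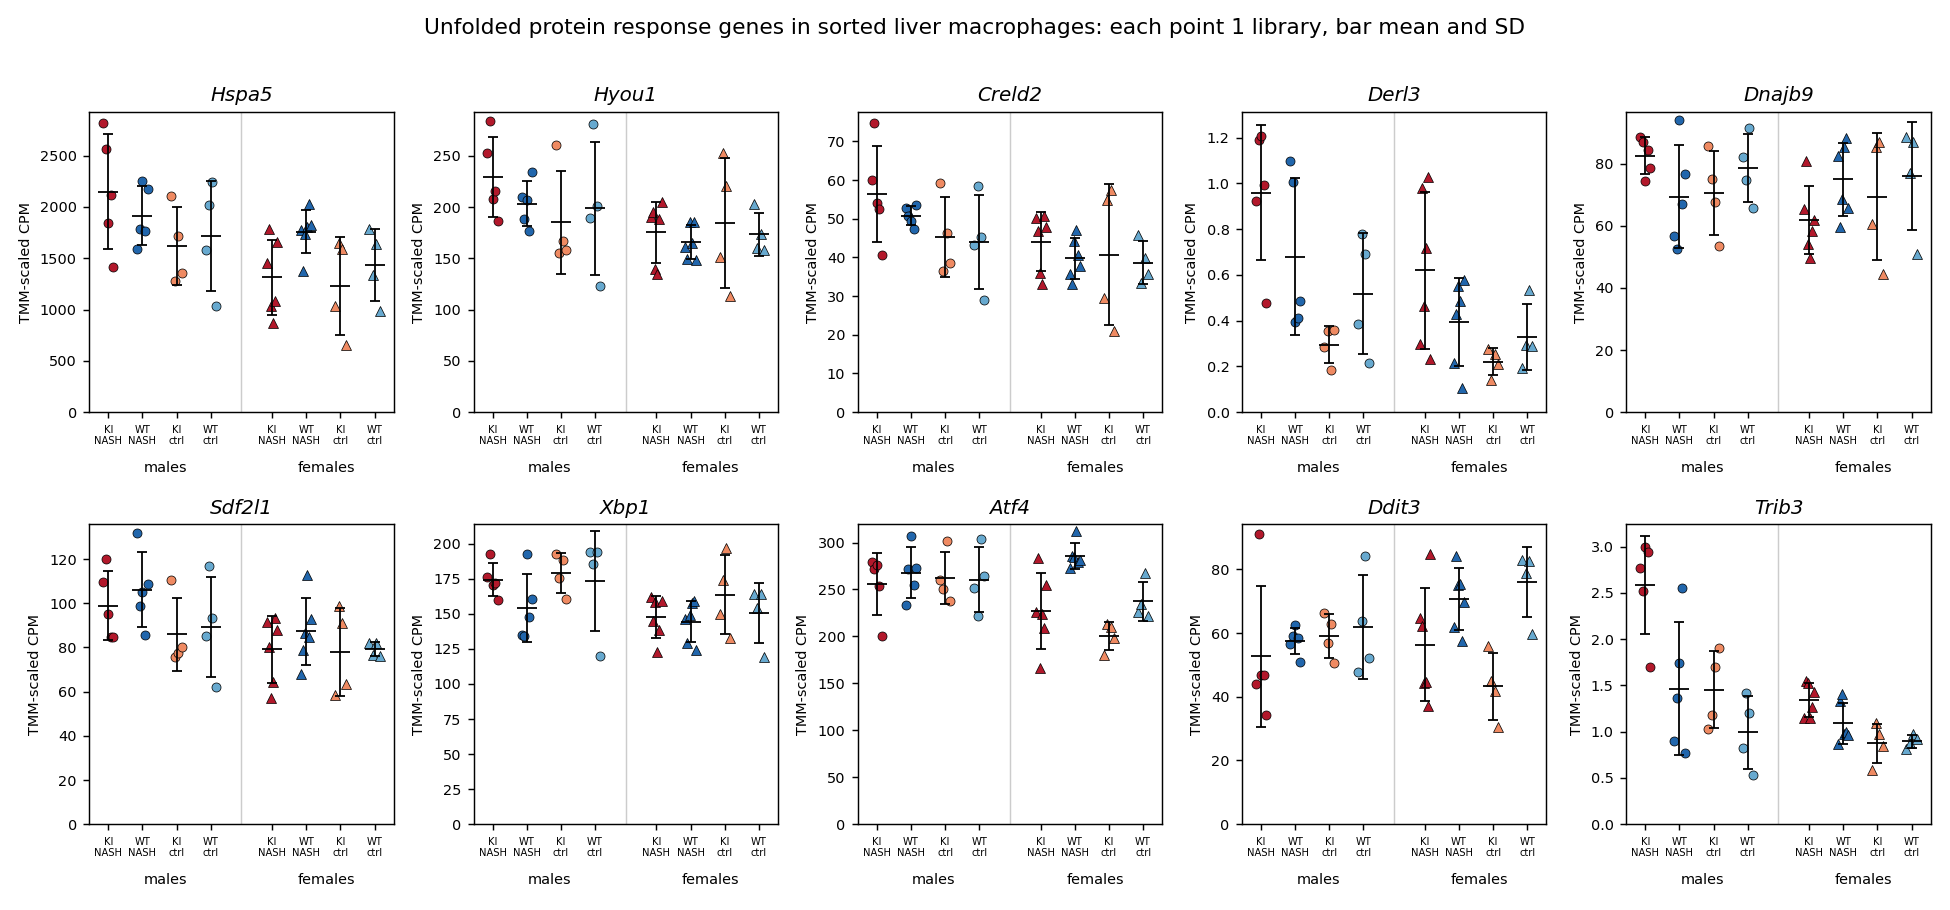
TMM-scaled CPM of the 10 genes in every macrophage library (points, with the mean and SD of each group; linear axes from 0), by sex, genotype and diet, with KI left of WT. In males Derl3 lies at 0.479 to 1.21 CPM in KI NASH and 0.184 to 0.357 CPM in KI control libraries, and in females Ddit3 lies at 30.4 to 55.9 CPM in KI control and 59.8 to 83.0 CPM in WT control libraries.

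In the macrophages, the cells named in the knock-in, the chaperone genes did not pass between KI and WT on either diet. In male macrophages on the NASH diet Hspa5 had 2815, 2561, 1845, 2113 and 1410 CPM in KI, against 1586, 1785, 2250, 1767 and 2177 CPM in WT. The groups overlapped (log2 0.17, SE 0.22, adjusted p = 0.720). Hyou1 (0.17, SE 0.19) and Creld2 (0.15, SE 0.18) had differences of like size, and 408 genes passed in this comparison (3.13%) with 0 of the 10 in edgeR or DESeq2. An unadjusted p under 0.05 was found in 2203 of all genes, and of the 10 in Trib3 alone. Trib3 had 2.77, 2.52, 2.99, 2.94 and 1.70 CPM in KI and 0.899, 1.36, 1.74, 2.56 and 0.772 CPM in WT (log2 0.82, SE 0.33, adjusted p = 0.216). Hepatocyte markers were higher in KI in this comparison (534 to 3202 CPM summed in KI, 73.9 to 357 CPM in WT, 9 of 10 passing), and their part in the Trib3 difference was not tested. The interval of the Hspa5 difference, -0.25 to 0.59, overlaps that of male liver, 0.39 to 1.36, and the tissues were not tested against each other.

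On the control diet 0 genes passed between male KI and WT macrophages in edgeR (0%), with 862 at an unadjusted p under 0.05, and none of the 10 was among these or called by DESeq2. In female macrophages on the NASH diet 72 genes passed (0.561%) and none of the 10 did in edgeR. Atf4 had a lowest, median and highest level of 167, 224 and 284 CPM in KI and 272, 283 and 312 CPM in WT, overlapping through 1 KI library. It was the gene of the 10 with an unadjusted p under 0.05, against 2377 of all genes. DESeq2 called it (log2 -0.33, SE 0.09, adjusted p = 0.0879 in edgeR). Hspa5 had 871, 1268 and 1781 CPM in KI and 1378, 1788 and 2025 CPM in WT in the same order (log2 -0.42, SE 0.21, adjusted p = 0.301). The KI effect on the NASH diet, female minus male, passed in 584 of 13373 genes (4.37%) and in 0 of the 10 in edgeR or DESeq2. Of the 10, Dnajb9 (-0.52, SE 0.24, adjusted p = 0.290) was at an unadjusted p under 0.05, against 1989 of all genes.

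In female macrophages on the control diet 1 of the 10 genes fell in KI, where 596 of 12838 genes passed (4.64%). Ddit3 had 55.9, 44.9, 41.7 and 30.4 CPM in KI, against 83.0, 78.8, 82.6 and 59.8 CPM in WT. All KI libraries lay below all WT libraries, at 0.569 of the WT level (log2 -0.81, SE 0.22, adjusted p = 0.0378). The call was lost without WT control replicate 1, 2 or 3 or KI control replicate 2, 3 or 4 (adjusted p 0.0710 to 0.0893). Atf4 had 180, 213, 210 and 198 CPM in KI and 226, 235, 268 and 222 CPM in WT, without overlap (log2 -0.25, SE 0.11, adjusted p = 0.218). The summed hepatocyte markers were 24.9 to 70.8 CPM in KI, against 124 to 365 in WT, and 2 of 10 passed. The recruited monocyte marker Cx3cr1 was higher in KI (log2 3.95, SE 0.62, adjusted p = 0.00147), and the Kupffer cell marker Timd4 (-1.68, SE 0.41, adjusted p = 0.0263), the immediate early gene Jun (-0.98, SE 0.24, adjusted p = 0.0274) and the clock gene Ciart (-1.06, SE 0.24, adjusted p = 0.0205) were lower. Their part in the Ddit3 result was not tested. Of 23 tested genes of the ATF4 arm list 1 fell, Ppp1r15a, which is named here after its value was seen.

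The NASH diet moved 1 of the 10 in male KI macrophages, where 3127 of 13036 genes passed (24.0%), a larger share than among the 10. Derl3 had 0.923, 1.19, 1.21, 0.995 and 0.479 CPM in NASH libraries, against 0.286, 0.353, 0.184 and 0.357 CPM in control libraries. All NASH libraries were higher, on counts of 11 to 25 per NASH and 4 to 6 per control library (3.23-fold, log2 1.69, SE 0.46, adjusted p = 0.0131). The call was lost without KI control replicate 3 (1.49, adjusted p = 0.0531). Hepatocyte markers rose with it (534 to 3202 CPM in NASH, 191 to 288 CPM in control, 9 of 10), 6 of 8 recruited monocyte markers rose and 1, Plac8, fell, 2 of 7 plasma cell markers rose and 1, Irf4, fell, and 7 of 10 Kupffer cell markers fell (14230 to 35130 CPM in NASH, 36040 to 40380 CPM in control). Their part was not tested. Trib3 (0.83, SE 0.35, adjusted p = 0.0977) did not pass, whereas 10 of the 25 other genes of the ATF4 arm rose.

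In male WT macrophages 1068 genes passed between the diets (8.19%) and in female WT macrophages 1652 (12.9%), and none of the 10 passed in either by edgeR or DESeq2. Atf4 in female WT was the only one with an unadjusted p under 0.05 (0.27, SE 0.10, adjusted p = 0.0962). Over all genes this p was under 0.05 in 3291 in male WT and in 3690 in female WT. In female KI macrophages 297 genes passed (2.31%) and 0 of the 10 in edgeR or DESeq2. Derl3 (1.45, SE 0.50, adjusted p = 0.113) and Trib3 (0.62, SE 0.21, adjusted p = 0.113) were at an unadjusted p under 0.05, against 2511 of all genes. The diet effect in KI minus that in WT passed in 0 genes in males in edgeR (0%, with 1595 at an unadjusted p under 0.05) and in 37 in females (0.288%), and in none of the 10 in edgeR or DESeq2. In males Derl3 was at an unadjusted p under 0.05 (1.32, SE 0.62, adjusted p = 0.404). In females none of the 10 was, against 1178 of all genes.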

How the data were processed

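RNA from total liver (illustra RNAspin kit) and sorted macrophages (Qiagen miRNeasy micro kit) was made into TruSeq Stranded mRNA libraries, per the labels' protocols. The authors deposited raw counts per gene symbol, whole numbers without normalization, in 3 tables. The genome build was mm10, per the submitters' processing notes. The sources used here name no aligner, counter or annotation, and do not say whether counting used strand. The number of per-sample columns left unused was 0.

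The members and lists were chosen with earlier results of these data known. Named genes were the 10 members in every comparison, up to 3 per list and direction where at least 3 members passed, and the 5 genes most like Hspa5 and Trib3, of which 1 is not reported here. Among 122 pairs of libraries within groups, male liver WT control replicates 3 and 4 had a mean chi-square of 0.0671 per gene over genes with 20 to 200 summed counts, against 2.05 to 11.9 in the others, and were averaged. The 4 groups of a tissue and sex were fitted together in edgeR 4.0.16 (R 4.3.3, limma 3.58.1): TMM scaling, filterByExpr (min.count 10, min.total.count 15), quasi-likelihood test, two-sided, Benjamini-Hochberg adjustment over all genes tested, threshold 0.05. Fits of both sexes used the shared symbols. Levels are CPM over TMM-scaled totals, except Spp1 and Lyz2, over total counts. The SE is the absolute log2 fold change divided by the square root of the test's F statistic. Intervals are ± 1.96 SE, a normal quantile that makes no allowance for the small groups, so they are approximate and may be too narrow. Likeness is Spearman's rho of log2 CPM after subtracting group means. The fit was tested on simulated data. Promoter windows came from a RefSeq table (GRCm38.p6), in which 9 of the 10 genes matched, and loci from GENCODE M21. Alternatives were DESeq2 1.42.0, its size factors, no filter, the replicate number as a block, 1 version of the merged library, and fits without single libraries or those with contradicting sex genes. Protein sequences were not analysed here.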

Additional observations from a re-analysis of the deposited data

Results flagged for a closer look

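Of 150 combinations of a gene and a group of 4 to 6 libraries, 8 held 1 library far from the others of its group. Chance gives about 1 in 20. In male KI NASH livers, replicate 4 had an Atf4 level of 94.9 CPM, against 57.6 to 62.0 CPM in the others, and a Trib3 level of 4.78 CPM, against 2.42 to 2.74 CPM. In the same group replicate 2 had 121 CPM of Dnajb9, against 45.7 to 52.7 CPM. In male KI control macrophages, replicate 1 had 261 CPM of Hyou1, against 155 to 167 CPM, and 111 CPM of Sdf2l1, against 75.5 to 80.3 CPM. Male KI NASH macrophage replicate 2 had 91.1 CPM of Ddit3, against 34.4 to 46.9 CPM. Female WT NASH macrophage replicate 4 had 312 CPM of Atf4, against 272 to 286 CPM. The male macrophage library labelled WT control replicate 4, whose sex genes contradict its label, had 120 CPM of Xbp1, against 185 to 194 CPM. The deviation of Trib3 lies towards the WT values of 5.66 to 19.7 CPM, and the male Trib3 call passed in every alternative, the one without that library included.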

How the results depend on the processing

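None of the 17 gene calls reversed. In 453 refits of them 411 kept the call and 42 lost it. Counts of the 10 members moved as follows. With DESeq2, 2 were called for the diet in male WT livers (1 in edgeR), 1 in male KI livers (0), 5 for KI over WT in male NASH livers (4; Sdf2l1 added), 3 in female control livers (2; Creld2 added), 6 for KI over WT in male control livers (3; Hspa5, Sdf2l1 and Trib3 added), 1 for the diet in female KI livers (0) and 1 for KI over WT in female NASH macrophages (0). Without the male liver library with contradicting sex genes, the count was 2 for the diet in male WT livers (1), 5 for KI over WT in male NASH livers (4; Sdf2l1 added, adjusted p = 0.0475), 1 for KI over WT in male control livers (3) and 3 in the mean over sexes (5). With replicate 4 alone in place of the merged library it was 2 for the diet in male WT livers (1, Xbp1 added). Same-numbered libraries of different groups had low median correlations of deviations (0.037 and 0.003 in male and female liver, 0.041 and -0.031 in male and female macrophages). Single pairs reached 0.23 and 0.134 in male and female liver, and 0.563 and 0.524 in male and female macrophages. Whether such pairs share an origin was not tested. With the number as a replicate block, 5 were called for KI over WT in male NASH livers (4; Derl3 added, adjusted p = 0.0253), 0 for KI over WT in female control livers (2) and 2 for the diet in male KI macrophages (1, Trib3 added). Leaving out 1 library at a time gave 0 to 2 for the diet in male WT livers (1), 4 to 6 for KI over WT in male NASH livers (4), 1 to 3 in male control livers (3), 0 to 2 for the diet in female KI livers (0), 0 to 3 for KI over WT in female control livers (2), 0 to 1 for female minus male on the NASH diet (0), 3 to 5 in the mean over sexes (5), 0 to 2 for the diet in male KI macrophages (1), and 0 to 1 for KI over WT in male NASH macrophages (0), the diet in female WT macrophages (0), and KI over WT in female macrophages on the NASH (0) and control diet (1). Trib3 passed the sex difference on the NASH diet without female WT NASH replicate 1 (2.45, adjusted p = 0.0352), and in male macrophages passed for KI over WT on this diet without WT NASH replicate 4 (1.10, adjusted p = 0.0446). Without male KI NASH replicate 2, Ddit3 passed for KI over WT in livers (-1.10, adjusted p = 0.0266) and for the diet in KI macrophages (-0.47, adjusted p = 0.0318). Over all genes DESeq2 called 1308 against 606 in edgeR for KI over WT in male control livers, 1595 against 1008 in female control livers, 156 against 12 in female NASH livers, 43 against 0 for the diet in male KI livers, 321 against 7 in female WT livers, 1777 against 1176 in female KI livers, 711 against 147 and 1229 against 635 for the difference of diet effects in male and female livers. In macrophages it called 840 against 408 for KI over WT in male NASH, 4 against 0 in male control, 554 against 72 in female NASH and 1167 against 596 in female control libraries, 1703 against 1068 and 952 against 297 for the diet in male WT and female KI, and 249 against 0 and 157 against 37 for the difference of diet effects. With the replicate block it was 187 against 606 for KI over WT in male control livers, 86 against 147 for the difference of diet effects in male livers, 7 against 12 for KI over WT in female NASH livers, and in macrophages 1952 against 1068, 747 against 1652 and 2 against 297 for the diet in male WT, female WT and female KI, and 6 against 72 for KI over WT in female NASH libraries. The block gave 4566 against 4807 for KI over WT in male NASH livers and 784 against 1008 in female control livers. For the diet in male KI macrophages it gave 3742 against 3127. DESeq2 called 5294 against 4807 for KI over WT in male NASH livers and 3296 against 2730 for the diet in male WT livers. Without the filter the count was 396 against 606 for KI over WT in male control livers. It was 0 against 72 in female NASH macrophages, where DESeq2's size factors gave 21. Leaving out 1 library moved the count for KI over WT in male control livers between 107 and 835. It was 3799 to 5252 in male NASH livers, 393 to 1179 in female control livers and 761 to 1299 in the mean over sexes. For the diet it was 1123 to 3376 in male WT livers and 466 to 1392 in female KI livers. In macrophages it was 2224 to 3991 for the diet in male KI and 768 to 1827 in female WT. KI over WT in macrophages gave 0 to 975 in male NASH, 0 to 662 in female NASH and 261 to 919 in female control. The sex difference on the NASH diet in liver gave 1311 to 2147. The cause of these changes was not tested. With 3 or 4 libraries a group, differences of the size of the Hspa5 change in female livers are not resolved, and Derl3 in macrophages rests on 2 to 25 counts per library.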
